A study of Rattus norvegicus with 196 samples.

Results

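The zinc finger protein genes described here are 38 of the 29188 rat transcripts counted by bulk RNA-seq in 25 brain regions. They were taken by name from a supplementary table of the study that names transcripts changed by fluoxetine in more than 1 region, as every entry whose symbol starts with Zfp, Znf, Zbtb, Zscan, Zkscan, Zc3h, Zdhhc or Zfand followed by a digit. The names gave 28 Zfp, 3 Zdhhc, 2 Zc3h, 2 Zbtb, 1 Zfand, 1 Zkscan and 1 Zscan transcript, and no Znf transcript. The members were thus chosen by the measured difference between FT and Sham samples, and its values and call counts are given below as a description that supports nothing about these genes. Differences between brain regions played no part in the choice and were tested.

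Zinc fingers are small protein folds held together by a zinc ion. Most Zfp proteins carry fingers of the C2H2 type, which read DNA sequence, and many of them join these to a KRAB domain that recruits the co-repressor TRIM28 and through it histone methylation. The Zbtb proteins pair C2H2 fingers with a BTB domain for dimerization and repression, and the SCAN domain of the Zscan and Zkscan proteins lets them pair with each other. The Zc3h proteins use CCCH fingers to bind RNA, the Zdhhc proteins are membrane enzymes that attach palmitate to other proteins, and the Zfand proteins bind ubiquitin. The shared prefix letter therefore covers genes with different tasks.

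Long-Evans rats 2 months old at the start drank fluoxetine, a selective serotonin reuptake inhibitor, at 18 mg/kg for 6 weeks (FT) or plain water (Sham). Frozen punches of a region were pooled over several animals of a treatment to make 1 sample, so animals within a sample cannot be separated. Samples carry the replicate numbers 1, 3, 4 and 5, and FT and Sham samples of 1 number were processed side by side. A treatment had 4 pools of animals for all its regions, so region samples of 1 number share animals and the samples of a region group are not separate animals. Most regions had 4 FT and 4 Sham samples, mPoA (medial preoptic area) had 4 Sham and 2 FT, and Arc (arcuate nucleus) had 2 Sham and 4 FT.

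The 196 samples held between 4586 and 50893913 counted reads. The Sham sample of replicate 3 in Nts (nucleus of the solitary tract) had only 4586 reads and none on any of the 38 transcripts. It and the CGC (cingulate cortex) samples of replicate 1 were left out of regional tests, which used 193 samples. The Sham sample of replicate 3 in ILC (infralimbic cortex) had 543403 reads and stayed in. In samples of replicate 3 the 50 most abundant transcripts took a median of 68.2% of the reads, against 34.8%, 29.9% and 28.3% in replicates 1, 4 and 5. Th and Slc6a3 were highest in VTA (ventral tegmental area), but Hcrt and the peptide genes Avp and Oxt were highest in VMH (ventromedial hypothalamus), and Neurod1 was highest in PAG (periaqueductal gray) ahead of dorDG (dorsal dentate gyrus), so some punches did not follow the markers of their label.

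All 38 transcripts passed the filter on low counts in the regional fits. Among Sham samples, 28 of the 38 differed between regions in edgeR's quasi-likelihood F-test with Benjamini-Hochberg adjustment at 0.1, beside 75.2% of all 17008 transcripts tested, and among FT samples 28 differed beside 80.4% of 16553. The F-test called 22 members in both treatments. How many of all transcripts were called in both is not given, here or for the comparisons below. Calls shared by both treatments are thus not shown to be particular to the members. The difference between the highest and the lowest region had a median of 1.43 on the log2 scale over the members and 1.82 over all transcripts, and it was above 2 for 6 of 38 members and for 44.6% of all transcripts. Testing each region against the mean of the others called 151 of 950 combinations of member and region in Sham, beside 19.2% of all such tests. Of these, 74 were higher in the region (11.4% of all tests) and 77 lower (7.87%). The raphe had 3 higher and 15 lower members in Sham (33.6% of all transcripts were called there) and LC (locus coeruleus) had 4 and 16 (34.6%), together the most lower calls of any regions. In FT the raphe had 1 and 5 (26.2%) and LC 2 and 3 (30.1%). FT samples, which came from other animals, gave 155 calls beside 21.9%, of which 81 were higher (12.6%) and 74 lower (9.31%), and 62 combinations were called with the same sign in both, which is 62 of 151 and 62 of 155.

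**Figure D1:**
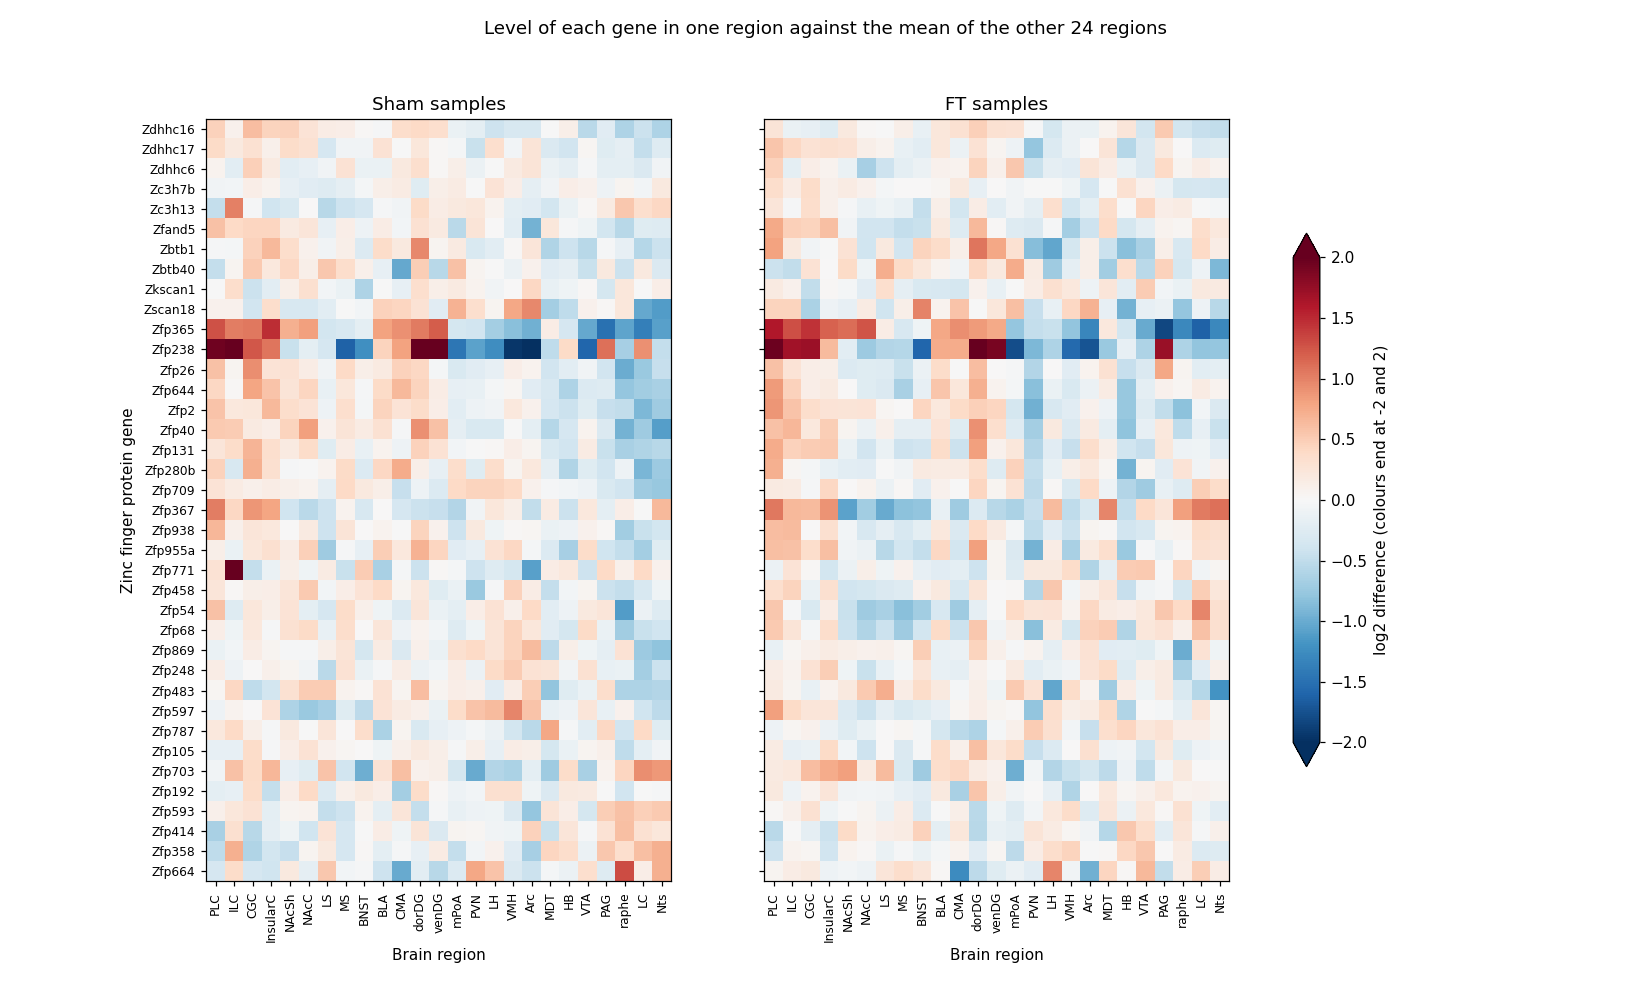
Each cell is the log2 difference between the level of a gene (row) in a brain region (column) and its mean in the other 24 regions, for Sham samples (left) and FT samples (right), and colours end at -2 and 2. Zfp238 and Zfp365 stand out in both panels, while most other rows are pale, with a median range over regions of 1.43 for the 38 genes in Sham.

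Zfp365 (ENSRNOT00000057992), whose protein binds the psychiatric risk factor DISC1, had the clearest division between regions. In Sham samples it ranged from 69.7 to 193.6 CPM (read counts scaled to library size) with a median of 99.6 in the 15 samples of the 4 cortical regions, and from 11.8 to 32.1 with a median of 20.6 in the 19 samples of 5 midbrain and brainstem regions. No cortical sample overlapped a midbrain or brainstem sample. The cortex was higher by 2.31 ± 0.09 (log2 fold change, SE), with an adjusted p of 2.59e-37 in edgeR's quasi-likelihood test, and each of the 4 replicate numbers alone gave between 2.18 and 2.55. In FT samples the ranges were 32.4 to 207.5 CPM in 15 cortical samples and 6.92 to 30.7 CPM in 20 midbrain and brainstem samples, again without overlap. The FT difference was 2.67 ± 0.12 (adjusted p = 5.79e-34). Zfp365 was the single member without overlap in this comparison in either treatment, beside 1.53% of all transcripts in Sham and 0.320% in FT.

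Zfp365 was also lower in the hypothalamus (mPoA, LH, VMH and Arc) than in the cortex. PVN was not put in this group because its label and the study's region table do not settle which nucleus it is. Against the other regions PVN had 0 members higher and 4 lower in Sham (20.0% of all transcripts called) and 1 and 13 in FT (33.0%). The 14 Sham hypothalamic samples lay between 16.2 and 48.1 CPM, below every cortical sample, and the fitted difference was -1.84 ± 0.10 (adjusted p = 2.15e-27). The FT difference was -2.12 ± 0.13 (adjusted p = 7.82e-24). The 8 dentate gyrus samples in Sham ranged from 75.2 to 167.2 CPM and differed from cortex by -0.07 ± 0.11 (adjusted p = 0.706). In FT the dentate gyrus was lower than cortex, at -0.55 ± 0.14 (adjusted p = 0.0025). Over the 25 regions, the profile in Sham and the profile in FT had a Pearson r of 0.967. This r describes regions whose samples share replicate numbers and processing.

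Zfp238 (ENSRNOT00000005849) is listed by RefSeq as Zbtb18, a repressor known for its part in the differentiation of cortical projection neurons. Its region values spanned 5.34 on the log2 scale in Sham and 4.65 in FT, the widest span of the 38 in both. The highest region was dorDG, where Sham samples of replicates 1, 3, 4 and 5 held 98.4, 170.9, 44.8 and 32.3 CPM and FT samples held 124.6, 173.9, 35.4 and 28.5 CPM. In Arc the 2 Sham samples, of replicates 4 and 5, held 1.12 and 1.10 CPM and the FT samples of the 4 replicates held 6.19, 7.97, 1.12 and 1.73 CPM. Replicates 1 and 3 were above replicates 4 and 5 in most regions, so the level of this gene moved with the replicate number as well as with the region.

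Cortex was above midbrain and brainstem for Zfp238 by 1.64 ± 0.18 in Sham (adjusted p = 3.98e-13) and 1.65 ± 0.19 in FT (adjusted p = 2.65e-12), although the samples overlapped, at 10.6 to 94.6 against 1.58 to 54.4 CPM in Sham. Dentate gyrus was above cortex by 0.99 ± 0.21 (adjusted p = 0.000119) and 0.85 ± 0.22 (adjusted p = 0.00227). Hypothalamus was below cortex by a wider margin than for any other member, at -3.18 ± 0.22 in Sham (adjusted p = 2.73e-21) and -2.80 ± 0.23 in FT (adjusted p = 7.40e-18). The Sham hypothalamic samples, at 1.10 to 6.72 CPM, did not overlap the cortical ones. With Zfp365 this made 2 members without overlap between hypothalamus and cortex in Sham, beside 1.36% of all transcripts, and in FT there were 0 beside 0.453%. Within the midbrain and brainstem, PAG and LC were high: Sham PAG held 37.2, 54.4, 11.8 and 5.61 CPM, and Sham LC held 34.8, 51.2, 6.45 and 6.44 CPM where FT LC held 8.76, 9.60, 1.98 and 5.24. Neurod1, a marker of granule cells, had its 3 highest region medians in Sham in PAG (106.9 CPM), dorDG (62.9) and LC (62.3). The median region held 4.26 CPM of Neurod1, and the part of such cells in the Zfp238 levels was not tested. The FT sample of replicate 1 in InsularC (insular cortex) stood apart from the other 3, with 3.08 CPM of Zfp238 against 9.40 or more and 32.4 CPM of Zfp365 against 66.2 or more.

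**Figure D2:**
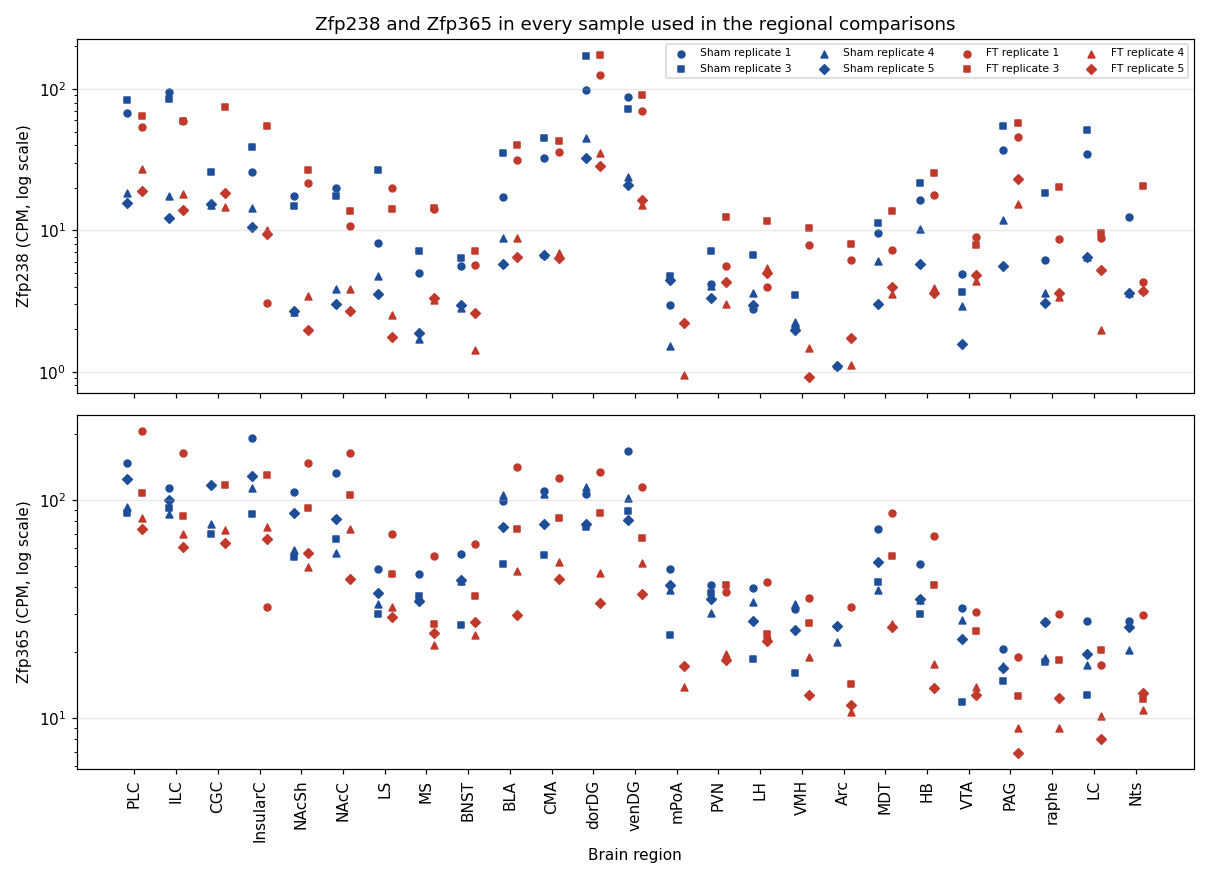
CPM of Zfp238 (top) and Zfp365 (bottom) on a log axis in each of the 193 samples used in the regional tests, by brain region, with Sham in blue and FT in red and the marker shape giving the replicate number. Zfp365 falls from 69.7 CPM or more in the 4 cortical regions to 32.1 CPM or less in VTA, PAG, raphe, LC and Nts in Sham, and Zfp238 peaks in dorDG at up to 173.9 CPM.

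The promoters of these genes are shown because their cortical levels were the farthest above those in midbrain and brainstem. They are the 250 bases before the RefSeq transcription start in the GRCr8 build, 5′ to 3′ on the gene's strand. Capitals mark the motifs searched on both strands: the GC box GGGCGG, the ETS motif CCGGAAG, the cAMP response element TGACGTCA, the NRF1 motif GCGCNTGCGC, the TATA box TATAAA and the E-box CACGTG, where neighbouring copies can overlap. Zfp238 has a start with GC boxes at chr13:91971352-91971601 (plus strand) and another with a TATA box at chr13:91973683-91973932 (plus strand), and Zfp365 has a GC box and an E-box at chr20:20664872-20665121 (plus strand). The files count transcripts without coordinates, so which start was used was not measured.
Zfp238 first start: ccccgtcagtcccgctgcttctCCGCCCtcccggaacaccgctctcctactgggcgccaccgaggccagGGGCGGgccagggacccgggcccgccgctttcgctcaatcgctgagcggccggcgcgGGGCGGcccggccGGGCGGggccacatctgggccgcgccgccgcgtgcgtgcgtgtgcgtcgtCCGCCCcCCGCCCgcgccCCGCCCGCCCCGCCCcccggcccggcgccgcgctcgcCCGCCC
Zfp238 second start: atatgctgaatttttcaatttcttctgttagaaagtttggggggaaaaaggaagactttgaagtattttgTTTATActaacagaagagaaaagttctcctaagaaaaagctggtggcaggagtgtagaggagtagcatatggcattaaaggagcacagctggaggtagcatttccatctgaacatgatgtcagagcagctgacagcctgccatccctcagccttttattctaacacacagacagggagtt
Zfp365: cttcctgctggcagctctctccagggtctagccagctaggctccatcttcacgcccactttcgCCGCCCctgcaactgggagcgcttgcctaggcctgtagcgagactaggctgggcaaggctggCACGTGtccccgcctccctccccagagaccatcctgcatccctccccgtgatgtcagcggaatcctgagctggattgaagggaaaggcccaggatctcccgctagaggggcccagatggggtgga

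Beyond these, the common regional difference was a higher level in cortex. In Sham, 18 of the 38 members were higher in cortex than in midbrain and brainstem (26.3% of all transcripts) and 3 were lower (29.7%), and the median member difference was 0.36 beside -0.03 over all transcripts. The 21 members called in either direction stand beside 56.0% of all transcripts. In FT, 12 were higher (25.5%) and 1 lower (25.2%), in all 13 beside 50.7%, with medians of 0.23 and 0.01. The 10 members called in both treatments, all with the same sign, are 10 of the 21 Sham calls and 10 of the 13 FT calls. A call needed a log2 difference of at least 0.32 in size and an adjusted p of at most 0.1. Without the replicate number in the model, 12 members in Sham and 6 in FT were called, all higher. Of all transcripts tested, 3341 were then higher and 3427 lower among 17008 in Sham. In FT these were 3021 and 2689 among 16553.

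**Figure D3:**
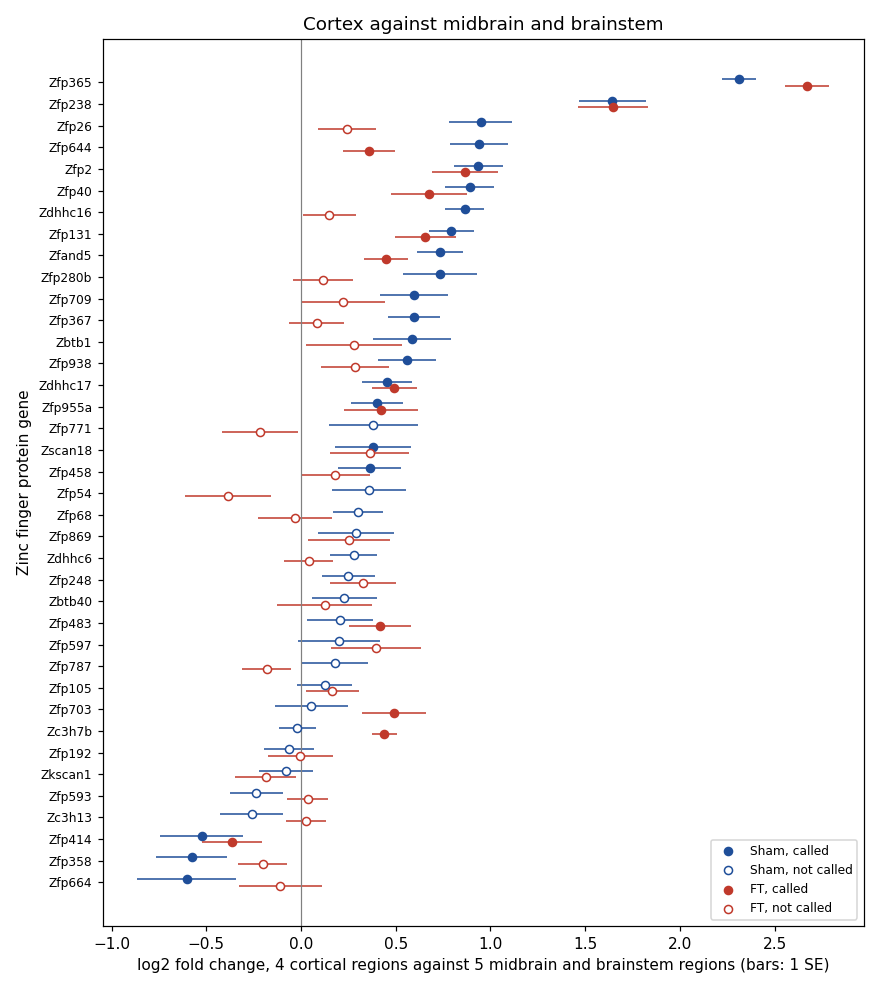
Log2 fold change of the 4 cortical regions against the 5 midbrain and brainstem regions for each gene, in Sham (blue) and FT (red), with bars of 1 standard error and filled points for calls. Points lie to the right of 0 for 30 of the 38 genes in Sham and 29 in FT, and Zfp365 and Zfp238 lie farthest right.

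Among the C2H2 genes, Zfp2 (ENSRNOT00000040346), Zfp40 (ENSRNOT00000015520) and Zfp131 (ENSRNOT00000021608), the last with a BTB domain, were higher in cortex in both treatments. Zfp2 differed by 0.94 ± 0.13 in Sham (adjusted p = 1.75e-09) and 0.87 ± 0.17 in FT (adjusted p = 1.44e-05). Zfp40 differed by 0.89 ± 0.13 (adjusted p = 7.42e-09) and 0.68 ± 0.20 (adjusted p = 0.00307). Zfp131 differed by 0.79 ± 0.12 (adjusted p = 2.80e-08) and 0.66 ± 0.16 (adjusted p = 0.000413). For each of these 3 genes, cortex was higher in all 4 replicate numbers of both treatments.

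Zfp644 (ENSRNOT00000002882), a partner of the histone methyltransferases G9a and GLP, ranged from 28.7 to 372.7 CPM with a median of 136.2 in Sham cortex and from 19.3 to 108.1 with a median of 59.9 in Sham midbrain and brainstem. Cortex was higher by 0.94 ± 0.15 (adjusted p = 2.06e-07) in Sham and 0.36 ± 0.14 (adjusted p = 0.0222) in FT, and the samples overlapped in both. Zfp26 (ENSRNOT00000038084) was higher by 0.95 ± 0.17 (adjusted p = 1.03e-06) and Zfp280b (ENSRNOT00000033298) by 0.73 ± 0.19 (adjusted p = 0.000813) in Sham, and their FT differences of 0.24 ± 0.15 (adjusted p = 0.180) and 0.12 ± 0.16 (adjusted p = 0.559) did not pass. Whether the 2 treatments differ in these regional differences was not tested. The 3 members lower in Sham cortex were Zfp664 (ENSRNOT00000001338) at -0.60 ± 0.26 (adjusted p = 0.0426), Zfp358 (ENSRNOT00000001289) at -0.58 ± 0.19 (adjusted p = 0.00654) and Zfp414 (ENSRNOT00000011094) at -0.52 ± 0.22 (adjusted p = 0.0336). In replicates 1, 3, 4 and 5 of Sham, Zfp414 differed by 0.03, 0.18, -1.31 and -0.17, and Zfp664 by 0.54, -1.15, -0.68 and -1.21. Zfp358 was below 0 in each. Without the replicate number in the model, 0 members were called lower in Sham cortex, beside 3427 of all transcripts. In FT, Zfp414 alone was lower, at -0.36 ± 0.16 (adjusted p = 0.0469), and its value turned to 0.12 without the replicate number in the model.

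The palmitoyltransferase Zdhhc16 (ENSRNOT00000072181), which itself palmitoylates Zdhhc6, ranged from 18.0 to 56.6 CPM with a median of 32.2 in Sham cortex and from 6.94 to 25.03 with a median of 18.9 in Sham midbrain and brainstem. The cortex was higher by 0.86 ± 0.11 (adjusted p = 3.98e-11), in 4 of 4 replicate numbers, and the hypothalamus was below cortex at -0.68 ± 0.12 (adjusted p = 8.67e-07). In FT the cortex held 11.6 to 108.1 CPM and the midbrain and brainstem 6.10 to 190.1 CPM, a difference of 0.15 ± 0.14 (adjusted p = 0.381), and the dentate gyrus was above cortex by 0.45 ± 0.18 (adjusted p = 0.0567). Zdhhc17 (ENSRNOT00000005078), the huntingtin-interacting palmitoyltransferase, was higher in cortex by 0.45 ± 0.13 in Sham (adjusted p = 0.00209) and 0.49 ± 0.12 in FT (adjusted p = 0.000262). Zdhhc6 (ENSRNOT00000054681), an enzyme of the endoplasmic reticulum that works with selenoprotein K, ranged from 6.82 to 85.2 CPM in Sham cortex and 9.44 to 45.7 in Sham midbrain and brainstem, and its difference of 0.28 ± 0.12 (adjusted p = 0.0490) was below the minimum size of 0.32, while its FT difference was 0.04 ± 0.13 (adjusted p = 0.818).

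Zfand5 (ENSRNOT00000024583), a ubiquitin-binding activator of the proteasome, had a median of 212.6 CPM (97.3 to 337.5) in Sham cortex and 126.6 CPM (71.7 to 197.0) in midbrain and brainstem. It was higher in cortex by 0.74 ± 0.12 in Sham (adjusted p = 3.02e-07) and 0.45 ± 0.12 in FT (adjusted p = 0.000647), and lower in hypothalamus than cortex at -0.85 ± 0.14 (adjusted p = 2.09e-07) and -0.88 ± 0.13 (adjusted p = 3.37e-08). Both directions held in each replicate number of both treatments. Of the CCCH genes, Zc3h7b (ENSRNOT00000026205) had the narrowest span of all 38 in Sham, 0.54 on the log2 scale. Its cortical difference was -0.02 ± 0.10 in Sham (adjusted p = 0.894) and 0.44 ± 0.07 in FT (adjusted p = 3.07e-08), and in FT it was lower in hypothalamus than cortex at -0.35 ± 0.07 (adjusted p = 5.68e-05). Zc3h13 (ENSRNOT00000015467), a subunit of the RNA m6A methylation complex, held 34.9 to 834.7 CPM in Sham cortex, with the highest sample in ILC and a median of 58.8, and its differences of -0.26 ± 0.17 and 0.03 ± 0.10 did not pass (adjusted p = 0.183 and 0.859).

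Zbtb1 (ENSRNOT00000050865), known from lymphocyte development, was higher in Sham cortex than in midbrain and brainstem by 0.59 ± 0.21 (adjusted p = 0.0122) and by 0.28 ± 0.25 in FT (adjusted p = 0.366). In FT the dentate gyrus was above cortex by 0.66 ± 0.30 (adjusted p = 0.0993). Its highest region was dorDG in both treatments, at 0.96 and 1.07 above the mean of the other regions. Zbtb40 (ENSRNOT00000033670) had no call in the 3 region group comparisons. Its highest value was in mPoA in both treatments, but mPoA was not called higher in either. Zscan18 (ENSRNOT00000036880) was higher in Sham hypothalamus than in cortex by 0.57 ± 0.21 (adjusted p = 0.0244), with a median of 12.1 CPM (3.10 to 26.3) against 9.29 CPM (3.01 to 18.7), and the FT difference was 0.34 ± 0.22 (adjusted p = 0.206). It was also higher in Sham cortex than in midbrain and brainstem, by 0.38 ± 0.20 (adjusted p = 0.0995), with 0.36 ± 0.21 in FT (adjusted p = 0.136). Zkscan1 (ENSRNOT00000045379), with both a KRAB and a SCAN domain, showed no called difference in the 3 comparisons, with cortical samples at 2.88 to 9.16 CPM and midbrain and brainstem samples at 2.70 to 11.3 CPM in Sham.

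Dentate gyrus and cortex differed for few members. In Sham, 3 were higher in dentate gyrus (13.0% of all transcripts) and 2 lower (12.3%), 5 in all beside 25.3%. In FT, 3 were higher (11.4%) and 3 lower (13.1%), 6 in all beside 24.6%. The 2 called in both were Zfp238 and Zfp367 (ENSRNOT00000036287). Zfp367 was lower in dentate gyrus at -1.18 ± 0.18 in Sham (adjusted p = 2.26e-07) and -1.17 ± 0.20 in FT (adjusted p = 2.66e-06), and Sham dentate gyrus samples lay between 3.57 and 14.2 CPM where cortex lay between 0 and 34.8. The Sham difference pointed down in replicates 1, 4 and 5 (-0.93, -1.35 and -1.18) and up in replicate 3 (0.37), while all 4 replicate numbers pointed down in FT.

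Hypothalamus was mostly lower than cortex. In Sham, 2 members were higher (23.5% of all transcripts) and 15 lower (20.3%), 17 in all beside 43.8%. In FT, 0 were higher (22.7%), also in DESeq2 and at an unadjusted p of 0.05, and 13 lower (22.0%), 13 in all beside 44.7%. The 10 called in both were all lower, 10 of 17 and 10 of 13. Beside Zfp365, Zfp238 and Zfand5 they included Zfp367 at -0.92 ± 0.15 and -0.97 ± 0.16, and Zfp703 (ENSRNOT00000019002), a co-repressor known as a luminal breast cancer gene, at -0.80 ± 0.21 and -0.99 ± 0.19. The adjusted p was 3.16e-07 and 7.49e-07 for Zfp367 and 0.00138 and 1.05e-05 for Zfp703, in Sham and FT. In Sham both pointed up in replicate 3, at 0.78 for Zfp367 and 0.46 for Zfp703, and down in replicates 1, 4 and 5. In FT, Zfp703 pointed up in replicate 1 (0.21), while Zfp367 pointed down in every replicate number. The 2 higher in Sham were Zscan18 and Zfp597 (ENSRNOT00000045192) at 0.56 ± 0.23 (adjusted p = 0.0427). Leaving out replicate 4 lowered the Sham count from 17 to 7, all of them lower in hypothalamus. Over all transcripts it went from 3999 higher and 3454 lower to 3275 and 3264.

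Cell type markers moved with the same regional comparisons. All 9 oligodendrocyte markers were lower in cortex than in midbrain and brainstem in both treatments, and their summed level was 115.0 to 567.0 CPM in Sham cortex and 312.8 to 1419 CPM in Sham midbrain and brainstem. Against cortex, 9 of 9 were higher in Sham hypothalamus and 8 of 9 in FT. Of the 6 astrocyte markers 4 were lower in Sham cortex (407.9 to 14420 CPM summed, against 523.6 to 17010), of the 3 choroid plexus markers 2 were lower (2.27 to 46.0 CPM against 7.42 to 69920), and the red blood cell transcript Hbb was lower (59.9 to 1832 CPM against 131.3 to 4019). Of the 5 neuron markers 2 were higher and 2 lower (749.3 to 3423 CPM against 915.9 to 3185), and of 4 microglia markers 2 were higher (90.1 to 158.1 CPM against 56.8 to 161.2). In the dentate gyrus all 3 choroid plexus markers were higher than in cortex in Sham (18.3 to 2663 CPM summed) and 2 in FT (6.41 to 4847 CPM), 2 of 6 astrocyte markers were higher in Sham, and 0 of the 5 neuron markers was called in Sham. In Sham cortex the choroid plexus marker Sostdc1 had a median of 0 reads, and every other cell type marker had a median above 0 in cortex, midbrain and brainstem of both treatments. Their part in the regional differences of the zinc finger genes was not tested. In bulk tissue, fewer cells of a type and less RNA per cell cannot be told apart.

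By the range of region means of log2 CPM in Sham, the 5 widest Zfp genes were Zfp238, Zfp365, Zfp771, Zfp54 and Zfp869. These means take no account of the replicate number. Zfp54 and Zfp869 had their highest Sham mean in Arc, whose 2 Sham samples were of replicates 4 and 5. With the replicate number in the model their spans were 1.69 and 1.45, below the 2.31 of Zfp664. Zfp771 (ENSRNOT00000023999) spanned 3.46 on the log2 scale in Sham and was highest in ILC, where replicate 1 held 58.3 CPM and replicate 3, the sample with 543403 reads, held 32.9 CPM from 5 reads. In Sham cortex as a whole its median was 2.09 CPM. Replicate 3 held the highest level in 21 of 22 regions with 4 Sham samples and in 23 of 23 with 4 FT samples. It was lower in Sham hypothalamus than cortex at -0.91 ± 0.27 (adjusted p = 0.00367) and in Sham dentate gyrus at -0.69 ± 0.29 (adjusted p = 0.0814), and the FT differences of -0.03 ± 0.22 and -0.13 ± 0.25 were not called (adjusted p = 0.934 and 0.771). Zfp54 (ENSRNOT00000031821) stayed between 0 and 7.65 CPM in the Sham cortex and between 0 and 6.79 CPM in midbrain and brainstem, and Zfp869 (ENSRNOT00000015611) between 0 and 16.1 CPM and between 0.449 and 16.5 CPM. Neither passed the F-test in Sham (adjusted p = 0.268 and 0.328). The correlation between the Sham and FT profiles over 25 regions had a median of 0.33 over the 38 members, from -0.19 to 0.97, and was above 0.7 for 4 of them, Zfp365, Zfp238, Zfp367 and Zfp483 (ENSRNOT00000020207).

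The level of these genes also differed between replicate numbers. In Sham, both replicates 4 and 5 were above both replicates 1 and 3 for 27 of the 38 members, against 39.2% of all transcripts, and the reverse held for 6, against 24.6%. In FT the numbers were 26 and 6, against 43.1% and 27.6%. The span between the replicate numbers had a median of 1.96 on the log2 scale over the members in Sham and 1.21 over all transcripts. Zbtb1, for example, had a median over regions of 1.24, 1.29, 12.1 and 16.5 CPM in replicates 1, 3, 4 and 5 of Sham, and Zfp771 had 3.09, 33.6, 1.24 and 0.996 CPM. Zc3h7b moved least, with 100.6, 88.9, 73.3 and 104.2 CPM.

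**Figure D4:**
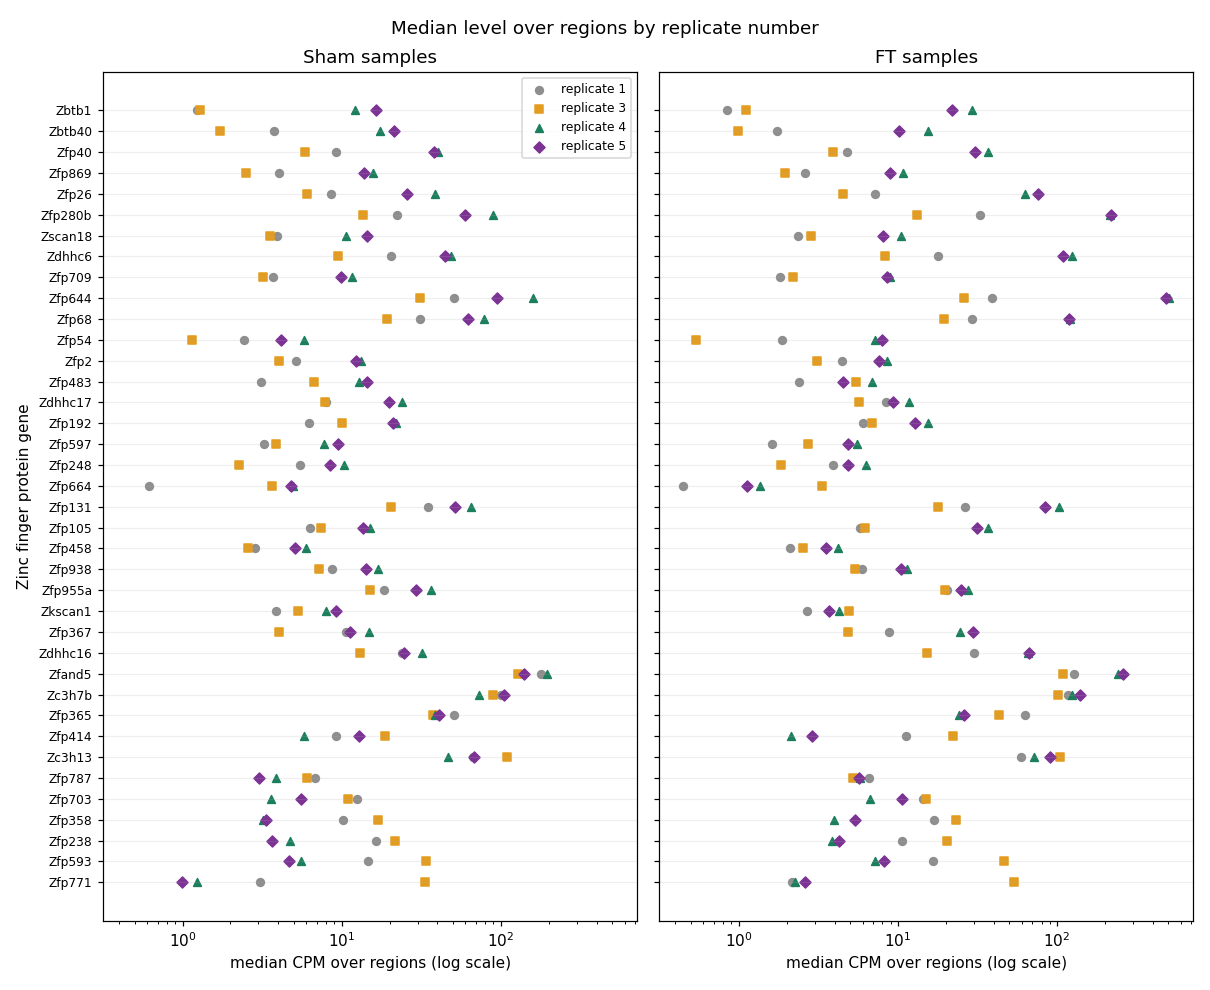
Median CPM over brain regions (log axis) of each gene by replicate number, in Sham (left) and FT (right) samples. Replicates 4 and 5 lie to the right of replicates 1 and 3 for most rows, 27 of 38 in Sham and 26 in FT, and of the 6 genes with the reverse order in each panel Zfp238, Zfp358, Zfp593 and Zfp703 are in both.

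Between FT and Sham, the contrast that chose the members, 20 of the 38 had a median log2 fold change over regions above 0 and 18 below 0. With each region fitted alone, 39 of 950 combinations of member and region were called higher in FT (1.01% of all tests) and 28 lower (0.913%), 67 in all beside 1.93%. Of these, 30 were in Arc (16 higher beside 13.7%, 14 lower beside 10.8%, together 24.6%), 16 in mPoA (9.59%), 10 in raphe (6.60%) and 10 in Nts (4.16%), and 1 in LH (lateral hypothalamus; 0.0965%). Arc and mPoA are the regions with samples of replicates 4 and 5 alone in 1 of the treatments. No member was called in both directions, and 6 were above 0 and 7 below 0 in 25 of 25 regions. DESeq2 called 127, beside 4.37%. Without the replicate number in the model edgeR called 0, and all these counts use the contrast that chose the members.

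The members with the highest medians were Zdhhc16 (0.87), Zfp280b (0.87), Zfp644 (0.86), Zfp703 (0.76), Zdhhc6 (0.74) and Zfp105 (ENSRNOT00000040625, 0.68). In the raphe, whose neurons supply the forebrain with serotonin, Zfp644 held 25.1, 19.3, 59.9 and 88.3 CPM in replicates 1, 3, 4 and 5 of Sham and 33.3, 24.8, 708.7 and 445.8 CPM in those of FT. FT was above Sham in every pair there, by a small margin in replicates 1 and 3 and a large one in replicates 4 and 5. Zfp280b held 19.8, 20.1, 44.9 and 72.6 CPM in Sham and 34.7, 10.4, 346.8 and 230.3 CPM in FT, and Zdhhc16 held 14.2, 9.40, 18.9 and 17.9 against 21.2, 7.66, 69.2 and 54.4 CPM. For both, FT was lower than Sham in replicate 3. In replicates 4 and 5 of the raphe, Zdhhc6 held 38.1 and 36.4 CPM in Sham and 137.0 and 102.0 CPM in FT, and Zfp105 held 7.54 and 10.9 against 27.9 and 29.1 CPM.

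The lowest medians belonged to Zfp664 (-1.23), Zfp483 (-0.94), Zkscan1 (-0.78), Zdhhc17 (-0.77), Zbtb40 (-0.75), Zfp414 (-0.74), Zfp597 (-0.70), Zfp2 (-0.69) and Zscan18 (-0.65). In the raphe Zfp664 held 4.04, 6.61, 8.13 and 7.89 CPM in Sham and 0.126, 4.96, 1.56 and 1.57 CPM in FT, lower in 4 of 4 pairs. The fitted difference there was -2.35 ± 0.54, and in Arc, mPoA and Nts it was -2.15 ± 0.36, -1.92 ± 0.49 and -2.20 ± 0.46. Zkscan1 held 3.93, 4.32, 11.3 and 10.6 CPM in Sham raphe and 2.08, 4.51, 5.63 and 2.78 CPM in FT raphe, and Zfp414 held 25.6, 17.5, 12.9 and 5.40 against 11.3, 19.4, 6.11 and 1.48 CPM. The 3 palmitoyltransferases went different ways, Zdhhc16 and Zdhhc6 above 0 and Zdhhc17 below 0 in 25 of 25 regions each. The medians of Zc3h7b (0.45), Zbtb1 (0.34), Zc3h13 (0.31) and Zfand5 (0.21) were above 0, while Zfp238 was at 0.02, the closest to 0.

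The pairs disagreed in size and, for many members, in sign. The median absolute log2 ratio of FT to Sham over the 38 members was 0.32, 0.34, 0.66 and 0.94 in replicates 1, 3, 4 and 5, against 0.21, 0.18, 0.28 and 0.33 over all transcripts. In replicate 5, 13 members were higher in FT in every region and 12 lower in every region, in replicate 4 it was 5 and 5, and in replicates 1 and 3 it was 0 and 0. The sign of a member's median ratio was shared by replicates 1 and 3 in 35 of 38 members and by replicates 4 and 5 in 37, but by replicates 1 and 4 in 22. Zfp644 had medians of -0.28, -0.32, 1.34 and 2.47 in replicates 1, 3, 4 and 5, Zdhhc6 had -0.18, -0.33, 1.36 and 1.42, and Zfp365 had 0.18, 0.44, -0.79 and -0.96. The replicates with the larger ratios are those with the higher Sham levels of most of these genes.

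**Figure D5:**
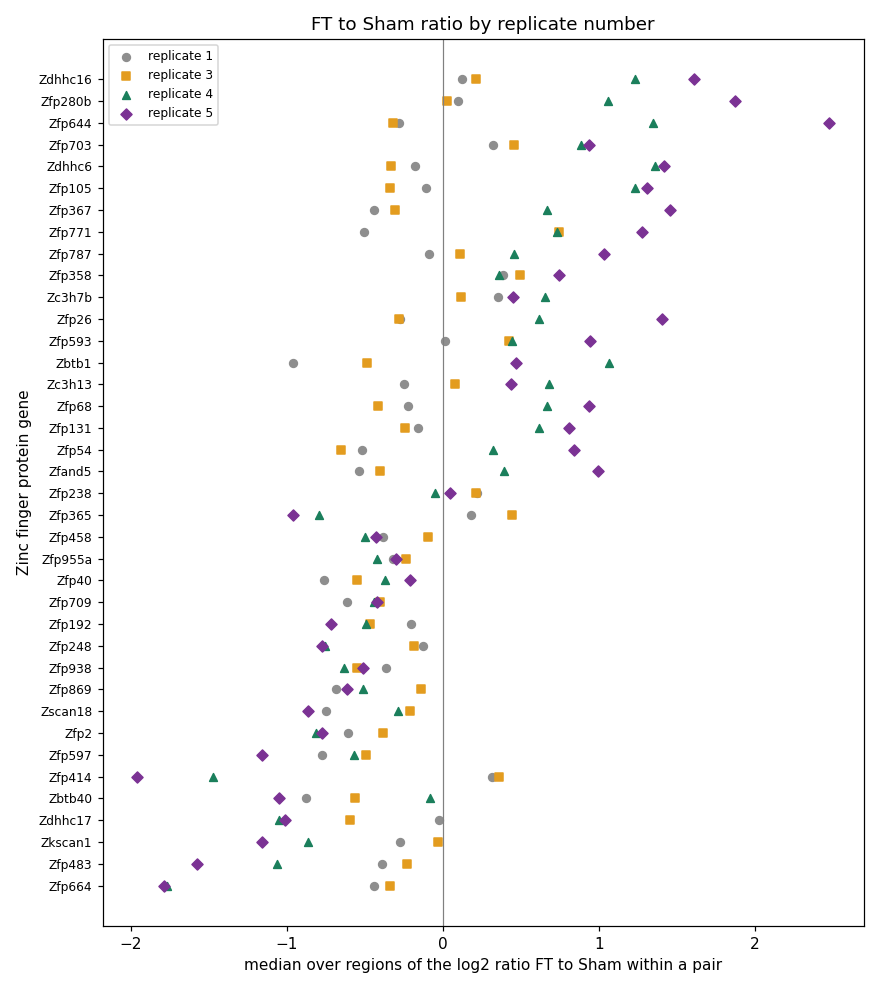
Median over regions of the log2 ratio of FT to Sham within a pair of samples, by gene and replicate number (22 pairs for replicates 1 and 3, 25 for replicates 4 and 5). Replicates 4 and 5 spread from about the lowest to the highest values, down to -1.96 and up to 2.47, and replicates 1 and 3 stay between -0.96 and 0.74.

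The other members, in order of their median log2 fold change over regions, were Zfp367 (0.55), Zfp771 (0.54), Zfp787 (ENSRNOT00000059069, 0.51), Zfp358 (0.50), Zfp26 (0.44), Zfp593 (ENSRNOT00000021937, 0.39), Zfp68 (ENSRNOT00000001784, 0.30), Zfp131 (0.29) and Zfp54 (0.22) above 0. Below 0 were Zfp365 (-0.33), Zfp458 (ENSRNOT00000032909, -0.36), Zfp955a (ENSRNOT00000073235, -0.36), Zfp40 (-0.45), Zfp709 (ENSRNOT00000021742, -0.52), Zfp192 (ENSRNOT00000072316, -0.57), Zfp248 (ENSRNOT00000008763, -0.58), Zfp938 (ENSRNOT00000042498, -0.58) and Zfp869 (-0.60). RefSeq lists Zfp192 as Zkscan8, a gene with KRAB and SCAN domains. Of zinc-binding genes whose names fall just outside the pattern, the highest median was that of Zranb1 (0.44) and the lowest that of ZFP87 (-1.18). These 11 genes had 4 calls higher in FT and 9 lower among 274 tests (1.01% and 0.913% of all tests), and 4 were higher and 3 lower in Sham cortex than in midbrain and brainstem (26.3% and 29.7% of all transcripts).

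Partners of these proteins were examined by lists. Of 11 genes of the TRIM28 pathway, through which KRAB proteins repress, 6 were higher and 1 lower in Sham cortex than in midbrain and brainstem (26.3% and 29.7% of all transcripts), and 4 and 1 in FT (25.5% and 25.2%). Between FT and Sham they had 20 calls higher and 7 lower among 275 tests (1.01% and 0.913%). Trim28 itself had a median log2 fold change of 1.02. The list's median ratios were 0.02, -0.09, 0.66 and 1.08 in replicates 1, 3, 4 and 5. The same signed medians over the zinc finger genes were -0.27, -0.24, 0.14 and 0.24. Of 5 genes tied to palmitoylation (Lypla2, Abhd17a, Selk and the substrates Dlg4 and Gpm6a), 2 were higher and 0 lower in Sham cortex (26.3% and 29.7%). Between treatments they had 1 call higher and 6 lower among 125 tests (1.01% and 0.913%). The table that supplied every name lists transcripts changed by fluoxetine, so these lists are not independent of that contrast.

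The promoters of 35 of the 38 members are in the RefSeq table, all except Zfp483, Zfp703 and Zscan18. With the first listed promoter of each gene counted, they held a median of 15 CpG dinucleotides in 250 bases, against 6 in all 27457 promoters, and a median GC content of 57.2% against 52.0%. An ETS motif was in 10 of them (28.6%, against 7.74% of all promoters), a GC box in 15 (42.9% against 32.4%), an NRF1 motif in 5 (14.3% against 4.17%), a cAMP response element in 2 (5.71% against 1.70%), an E-box in 3 (8.57% against 5.79%) and a TATA box in 2 (5.71% against 13.1%), without the second start of Zfp238. The 27457 promoters were taken whether or not the gene was expressed here, while all 38 members passed the low-count filter. Promoters of other expressed genes were not compared, so these shares are not shown to be particular to the members. Below are the promoters of Zfp644 (chr14:3249934-3250183, plus strand), with the highest ratio in replicate 5, and Zfp664 (chr12:37456908-37457157, minus strand), with the lowest median. Zdhhc6 (chr1:264361436-264361685, minus strand) and Zkscan1 (chr12:22080115-22080364, plus strand) show the ETS motif in a gene above 0 and a gene below 0. The capitals follow the same motifs as above.
Zfp644: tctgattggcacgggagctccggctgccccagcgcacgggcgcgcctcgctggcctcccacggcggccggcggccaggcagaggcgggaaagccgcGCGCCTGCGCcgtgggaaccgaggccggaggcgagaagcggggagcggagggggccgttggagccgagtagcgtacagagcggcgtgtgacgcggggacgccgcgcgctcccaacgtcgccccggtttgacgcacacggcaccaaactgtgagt
Zfp664: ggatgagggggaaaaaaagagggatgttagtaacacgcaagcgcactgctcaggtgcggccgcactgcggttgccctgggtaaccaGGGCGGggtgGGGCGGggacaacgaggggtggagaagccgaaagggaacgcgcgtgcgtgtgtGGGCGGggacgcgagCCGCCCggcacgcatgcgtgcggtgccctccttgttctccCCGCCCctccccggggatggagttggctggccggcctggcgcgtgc
Zdhhc6: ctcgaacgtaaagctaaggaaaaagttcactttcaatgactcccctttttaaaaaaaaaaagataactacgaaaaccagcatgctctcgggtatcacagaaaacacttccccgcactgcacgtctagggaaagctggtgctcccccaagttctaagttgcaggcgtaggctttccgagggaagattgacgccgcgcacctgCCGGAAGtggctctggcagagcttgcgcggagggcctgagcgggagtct
Zkscan1: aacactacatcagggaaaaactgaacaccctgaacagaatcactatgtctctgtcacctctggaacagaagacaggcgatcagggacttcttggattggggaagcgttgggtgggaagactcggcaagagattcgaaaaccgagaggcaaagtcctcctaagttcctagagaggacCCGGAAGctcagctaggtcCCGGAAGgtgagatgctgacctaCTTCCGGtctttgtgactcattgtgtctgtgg

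Zinc finger genes often lie in clusters of recent copies, whose reads are hard to assign. In the order of genes on GRCr8, 11 members had 3 or more similarly named genes among the 5 genes on each side, against 2.16% of 23154 genes, 10 had 1 or 2 and 17 had 0. Zfp938 had 8 such neighbours, the most of any member. The members were themselves picked by such names, and other zinc finger genes were not compared. These counts are thus not shown to be particular to the members. Reads that overlapped more than 1 counted transcript were set aside as ambiguous, for members in clusters and for others alike. How many reads members in clusters lost to their copies was not measured, so their levels are uncertain. The median log2 fold change of FT against Sham was -0.36, -0.48 and 0.31 in these 3 groups of members. In Sham, 6 of 11, 5 of 10 and 10 of 17 members were called between cortex and midbrain and brainstem (56.0% of all transcripts). Of these calls, 6, 5 and 7 were higher in cortex, beside 26.3% of all transcripts higher and 29.7% lower. All the lower calls were in the group with 0 such neighbours.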

How the data were processed

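RNA from pooled brain punches was sequenced as 76 bp stranded pairs in 196 samples. The deposited files hold raw counts per Ensembl transcript without coordinates. The authors aligned reads with STAR to rn5 and counted them with HTSeq, which sets ambiguous reads aside, and the deposited counts are not normalized. Names came from a supplementary table, and members and lists (TRIM28 pathway, palmitoylation, names outside the pattern, cell type and region markers) were chosen with earlier results of these data known.

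Counts were fitted with edgeR 4.0.16 in R 4.3.3 (TMM factors, quasi-likelihood test, filterByExpr requiring counts of 10 and totals of 15). Regions were compared within each treatment in 1 fit of all its samples with the replicate number as a block, without libraries under 100000 reads and CGC replicate 1. The study's methods remove 2 CGC samples as outliers without a number, and replicate 1 was taken from its plot. FT and Sham were compared per region with the same block, since the study's methods process and model replicate numbers together. Deviations of same-numbered FT and Sham samples correlated with a median r of 0.654 over regions. A call needed 1.25-fold and p at most 0.1 after Benjamini-Hochberg adjustment over all transcripts tested. The SE is the absolute log2 fold change over the square root of F. CPM used TMM-scaled library sizes, and pair ratios used log2 CPM with a prior count of 2. The tests were tried on simulated data.

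Totals ranged from 4586 to 50893913 reads, so members at a few CPM rest on few reads in shallow samples. Samples are pools and the replicate number is a block, so p-values measure the spread left between pooled samples after the block. They measure neither the spread between animals nor that between pools. Region samples of the same replicate number share animals but were counted as separate, so small regional p-values do not speak for many animals. All members are named, with values for every prefix other than Zfp. Of the Zfp genes, values are given for the 5 with the widest range of Sham region means, taken without the block. They are also given for the 4 with the highest and the 4 with the lowest median treatment difference. Others were named after their values were seen. Alternatives were no block, DESeq2 1.42.0, RLE factors, an adjusted p of 0.05, no low-count filter, all libraries and each replicate left out.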

Additional observations from a re-analysis of the deposited data

Results flagged for a closer look

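Among 64 groups of 4 samples searched for the genes shown sample by sample, a sample far from the others was found 5 times, and by chance about 1 in 20 groups has one. In FT samples, Zfp238 in Nts held 20.5 CPM in replicate 3 (the others 3.75 to 4.34), Zfp365 in Nts held 29.6 CPM in replicate 1 (the others 10.9 to 13.1), and Zfp703 in raphe held 5.37 CPM in replicate 5 (the others 14.0 to 15.3). Zfp771 in replicate 3 held 42.6 CPM in Arc and 64.5 CPM in ILC of FT samples, each far above the other 3 samples of its group. Over all regions with 4 samples, Zfp771 had such a sample in 23 of 23 groups in FT and 21 of 22 in Sham.

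For 2 members every pair moved up in FT in one region and down in another. Zfp238 had a log2 fold change of 1.06 in MS (medial septum) and -1.58 in LC, and Zfp54 had 1.09 in LC and -1.10 in MS. The difference between regions was not tested for either gene.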

How the results depend on the processing

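Without the replicate block, members called fell to 3 and 3 (F-test, Sham and FT), 12 and 6 (cortex), 1 and 0 (dentate gyrus), 6 and 4 (hypothalamus), 28 and 22 (each region) and 0 (FT against Sham), and Zfp414 in FT cortex turned to 0.119. Over all transcripts, Sham then had 3341 higher and 3427 lower (cortex), 905 and 872 (dentate gyrus) and 2431 and 2281 (hypothalamus). FT had 3021 and 2689, 675 and 761, and 2143 and 2167. For the F-test, each region, FT against Sham and the adjusted p of 0.05, counts over all transcripts are not given here. With an adjusted p of 0.05, 2 members were called in Sham dentate gyrus. Leaving out 1 replicate gave 2 to 6 (dentate gyrus, Sham), 7 to 18 (hypothalamus, Sham), 8 to 22 (cortex, FT), 2 to 8 (dentate gyrus, FT), 95 to 160 (each region, FT) and 3 to 86 (FT against Sham). The last fell to 3 without replicate 4 and 6 without replicate 5, when Arc and mPoA could not be fitted. Hypothalamus in Sham fell to 7 without replicate 4, cortex in FT rose to 22 without replicate 1 and fell to 8 without replicate 4, and each region in FT fell to 95 without replicate 3. Over all transcripts, hypothalamus in Sham had 3275 higher and 3264 lower without replicate 4. Cortex in FT had 4094 and 4815 without replicate 1, and 3328 and 3768 without replicate 4. Dentate gyrus in Sham fell to 3, 3 and 2 without replicates 3, 4 and 5, and in FT to 2 without replicate 5. Over all transcripts, the Sham counts were 1990 higher and 1798 lower, 1684 and 1763, and 1645 and 1594. The FT counts were 1661 and 1396. FT against Sham gave 201 calls with no low-count filter and 127 with DESeq2, beside 67. The cause was not tested. Of the 75 differences of single members that were called, 45 lost the call and 29 kept it without the block, 27 lost it without replicate 4, 19 without replicate 5, and 4 to 11 under each other alternative. With no low-count filter the median of all transcripts moved to -0.16 in FT cortex and 0.18 in FT hypothalamus, where the member medians were 0.16 and -0.11. Depth limits genes at a few CPM, such as Zfp664 and Zfp54.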
